A study of Mus musculus with 88 samples.

Results

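Mitochondrial ribosomal proteins were followed in dendritic cells grown from mouse bone marrow, with and without lipopolysaccharide (LPS). They were taken as every protein group of the trypsin table, apart from reverse, contaminant and site-only entries, whose first gene name begins with Mrpl or Mrps. There were 70 such groups among 5899, 42 named Mrpl and 28 named Mrps. RefSeq holds 78 protein-coding Mrpl and Mrps genes, of which 70 were found under their own symbol and 2 under an older one (Mrpl57 as Mrp63 and Mrpl58 as Ict1). Mrpl2, Mrpl10, Mrpl35, Mrpl36, Mrpl54 and Mrps18c were not measured here. By structure 44 members belong to the large subunit and 25 to the small one. Mrps18a and Mrps30 sit in the large subunit despite their names, and Mrps36 is now counted with the 2-oxoglutarate dehydrogenase complex and not with the ribosome. Bacterial ribosomes have a counterpart of 39 members, 28 are specific to mitochondria and 3 (Mrpl55, Mrps28 and Mrps36) were not assigned.

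The mitochondrial ribosome translates the few messages encoded by mitochondrial DNA, which are membrane subunits of the respiratory chain and of the ATP synthase. Its RNAs come from mitochondrial DNA, but its proteins are encoded in the nucleus, made in the cytosol and imported. It descends from a bacterial ribosome that lost RNA and gained proteins. In myeloid cells LPS is known to shift metabolism from respiration to glycolysis.

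The cells were from female C57BL/6J mice, were differentiated with GM-CSF and carried medium-heavy (M) lysine and arginine. All cells were pooled and moved to heavy (H) medium just before stimulation on day 9, so M marks protein made before the switch and H protein made after it. LPS was given at 100 ng/ml and mock cells received no stimulation. Both arms were sampled every hour from 1 to 6 h and at 0.5, 9, 12 and 24 h, with a shared 0 h, in 2 replicates (42 trypsin runs). Each aliquot was mixed with unlabelled (L) cells as a common standard. The series' design text stops at 12 h, while the labels and the table hold 24 h. The labels do not tell whether the 2 replicates were grown apart, so every p-value reflects only how far these samples scatter, and that scatter may be technical. GM-CSF cultures hold several myeloid cell types, and fewer cells of a type cannot be told apart from less protein per cell. Of 12 dendritic cell markers 9 were measured, Itgax, Cd74 and H2-Ab1 among them, and none of 8 lymphocyte markers was.

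The unit is a ratio to the L standard, divided in each run by 1 factor, the median sum of M/L and H/L among the 2628 proteins whose M/L was measured in all runs. A scaled value therefore gives a protein's ratio to its own amount in the L standard, relative to the bulk of the proteins of that run. Runs held 68083 to 109064 M/L peptide pairs over 3575 to 4338 proteins. A member's M/L rested on a median of 4 pairs, against 9 for all proteins. M/L was present for 24 members in all 42 runs, and 16 members had too few values for any test. LPS and mock were compared with limma over all proteins, with Benjamini-Hochberg adjustment, and called below 0.05.

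Many pre-existing mitochondrial ribosomal proteins were lower after LPS than in mock cells over 6 to 12 h, and most were at 24 h. Over 6, 9 and 12 h, 18 of 42 members tested were called and all 18 were lower. In that comparison 17.1% of all proteins were called and 13.6% were called lower. The estimate was below 0 for 42 of 42 members, against 56.2% of all proteins, with a median log2 difference of -0.23 against -0.02. At 24 h 30 of 35 members were called, all lower, where 37.9% of all proteins were called and 27.6% were called lower. The median log2 difference was then -0.61, a ratio of 0.654, against -0.07 for all proteins. The 18 members called over 6 to 12 h were all called at 24 h too.

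Mrpl41, a large-subunit protein with no bacterial counterpart, had the smallest p in both comparisons. Its scaled M/L over 6 to 12 h lay between 1.00 and 1.26 in the 6 LPS runs, with a median of 1.12. In the 6 mock runs it lay between 1.27 and 1.41, with a median of 1.35, so the arms did not overlap. The log2 difference was -0.26 ± 0.04 (SE from the fit, limma adjusted p = 6.04e-05). At 24 h Mrpl41 stood at 0.839 and 0.950 after LPS and at 1.44 and 1.53 in mock, and at 0 h it had been 1.10 and 1.05. The 24 h difference was -0.73 ± 0.07 (limma adjusted p = 2.11e-08).

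Mrpl53 and Mrpl40, large-subunit proteins that are likewise specific to mitochondria, came next. Mrpl53 lay between 0.693 and 0.822 after LPS over 6 to 12 h (median 0.734) and between 0.861 and 1.05 in mock (median 0.924). These runs did not overlap either, and the difference was -0.34 ± 0.06 (limma adjusted p = 0.000364). Mrpl40 lay between 0.691 and 0.908 after LPS (median 0.749) and between 0.860 and 0.927 in mock (median 0.886), with some overlap, at -0.22 ± 0.05 (limma adjusted p = 0.000808). Over all members, every LPS value lay below every mock value in 6 of 42 over 6 to 12 h, against 5.22% of all proteins. At 24 h this held for 35 of 35 members, against 38.9% of all proteins.

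**Figure D1:**
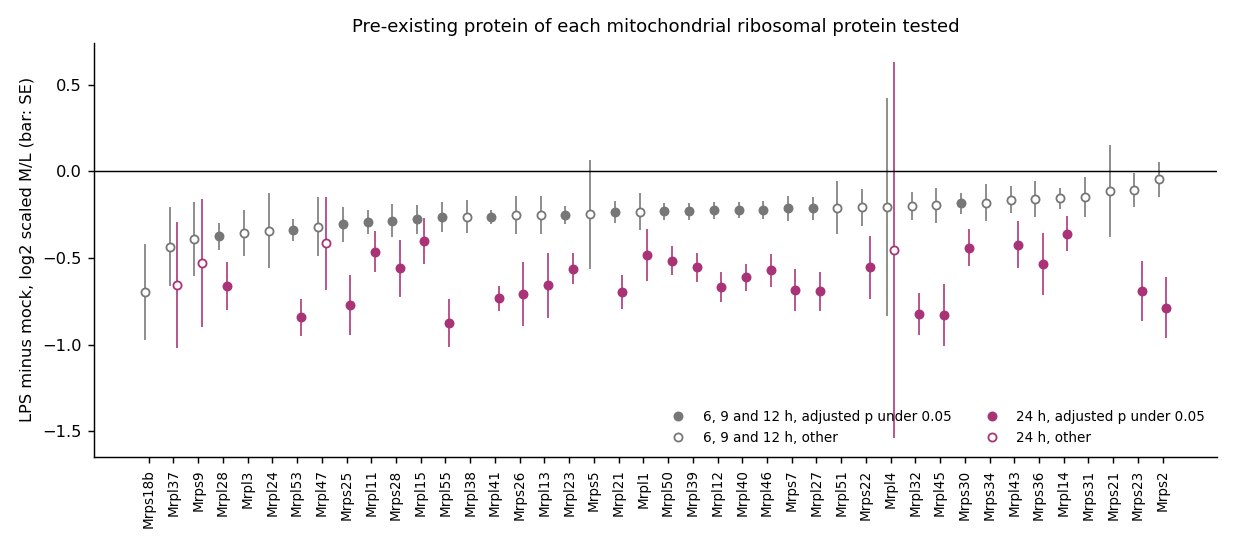
Difference between LPS and mock in log2 scaled M/L for each of 42 members tested over 6, 9 and 12 h (grey) and, where tested, at 24 h (purple). Points are limma estimates, bars are SE, and filled points have an adjusted p under 0.05. The grey points lie between -0.70 (Mrps18b) and -0.05 (Mrps2), and no purple point is above 0.

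The bacterial-type large-subunit proteins called over 6 to 12 h included the stalk proteins Mrpl12 (-0.23) and Mrpl11 (-0.30), where translation factors bind. They also included Mrpl23 (-0.25), which lines the exit of the peptide tunnel, Mrpl27 (-0.21), whose bacterial counterpart reaches the peptidyl transferase centre, Mrpl28 (-0.38), Mrpl15 (-0.28) and Mrpl21 (-0.24). Among mitochondria-specific proteins of the large subunit Mrpl39, Mrpl46 and Mrpl50 were lower, at -0.23, -0.22 and -0.23, and so were Mrps30 (-0.19) and the unassigned Mrpl55 (-0.27). The estimate of Mrpl55 was 0.017 without replicate 1 and -0.34 without replicate 2. From the small subunit Mrps7 (-0.21), the head protein next to the tRNA exit, Mrps25 (-0.31) and the unassigned Mrps28 (-0.29) were called. By subunit, 15 of 28 large-subunit members and 3 of 13 small-subunit members passed the test, with medians of -0.24 and -0.21. By origin, 8 of 20 members with a bacterial counterpart and 8 of 19 specific to mitochondria passed, with medians of -0.24 and -0.22. The difference between subunits was not tested.

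The promoters of the members were read from a table of RefSeq promoters (GRCm38.p6), in which 62 of the 70 members were matched by symbol. The 250 bases before each start were searched on both strands for 2 motifs of factors known to act on nuclear genes of mitochondrial proteins. The ETS letters CCGGAAG, bound by GABP among others, were found for 16 of 62 members (25.8%) and 7.83% of all genes. The NRF1 core CGCATGCG was found for 6 members (9.68%) and 1.75% of all genes. All genes here are the 27025 with a promoter and not only those of measured proteins. A match describes the letters only. M/L follows protein made before the switch, and no link between the letters and its differences was tested. The 3 windows below belong to the members with the smallest p for M/L over 6 to 12 h among those that hold the ETS letters, which are in capitals, also as their reverse complement CTTCCGG. No NRF1 core lies in these 3 windows. Mrpl3 did not pass that test (-0.36 ± 0.13, limma adjusted p = 0.0782).
Mrpl53 (chr6:83108858-83109107, strand +): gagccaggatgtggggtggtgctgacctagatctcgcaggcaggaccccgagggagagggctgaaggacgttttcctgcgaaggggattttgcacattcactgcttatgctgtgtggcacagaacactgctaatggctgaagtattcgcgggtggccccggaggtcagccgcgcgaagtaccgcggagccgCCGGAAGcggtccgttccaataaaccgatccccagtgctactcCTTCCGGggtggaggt
Mrpl27 (chr11:94653541-94653790, strand +): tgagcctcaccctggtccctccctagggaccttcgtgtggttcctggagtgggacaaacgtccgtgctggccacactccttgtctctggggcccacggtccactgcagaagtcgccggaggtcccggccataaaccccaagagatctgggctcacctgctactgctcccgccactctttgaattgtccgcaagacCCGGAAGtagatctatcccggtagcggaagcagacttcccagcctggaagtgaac
Mrpl3 (chr9:105053018-105053267, strand +): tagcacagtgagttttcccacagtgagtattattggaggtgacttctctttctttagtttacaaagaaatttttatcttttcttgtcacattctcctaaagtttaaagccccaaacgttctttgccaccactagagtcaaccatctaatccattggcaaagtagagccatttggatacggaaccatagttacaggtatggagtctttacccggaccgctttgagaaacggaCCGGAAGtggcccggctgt

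At 24 h the 12 further members called were Mrpl1 (-0.48), Mrpl9 (-0.92), Mrpl13 (-0.66), Mrpl14 (-0.36), Mrpl32 (-0.82), Mrpl43 (-0.42), Mrpl45 (-0.83), Mrps2 (-0.79), Mrps22 (-0.55), Mrps23 (-0.69), Mrps26 (-0.71) and Mrps36 (-0.54). Mrpl32 is trimmed by the m-AAA protease before it joins the ribosome, and Mrpl45 lies at the tunnel exit and helps hold the ribosome at the inner membrane. The counts were 22 of 25 for the large subunit (median -0.61) and 7 of 9 for the small one (median -0.69). Mrps36, the member outside the ribosome, moved with them at 24 h. Its scaled M/L was 0.835 and 0.976 after LPS and 1.35 and 1.26 in mock, so the arms did not overlap. The 5 members tested and not called at 24 h were Mrpl4, Mrpl37, Mrpl47, Mrps9 and Mrps27, with estimates between -0.41 and -0.66.

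The number of members called was higher at the later times. No member was called at any of the 7 times from 0.5 to 6 h, where 1.57%, 0.147%, 0.12%, 0.184%, 0.305%, 0.408% and 0.632% of all proteins were called in order of time. Then 3 of 30 were called at 9 h, 12 of 32 at 12 h and 30 of 35 at 24 h, against 5.01%, 12.2% and 37.9% of all proteins. The number of members at an unadjusted p under 0.05 was between 0 and 7 at each of the earlier times. Over 1, 2 and 3 h the median was -0.06, 0 of 42 members were called by limma and 3 had an unadjusted p under 0.05 (0.332% of all proteins called). At 0.5 h the sign was the other way, with 37 of 40 members above 0 and a median of 0.16, and none was called. The change in the difference itself passed the test for 16 of 33 members between 6 to 12 h and 24 h, where 17.3% of all proteins were called. The median of this change was -0.35, against -0.05 for all proteins. Between 1 to 3 h and 6 to 12 h it passed for 3 of 38 members, Mrpl23, Mrpl41 and Mrpl53, where 6.32% of all proteins were called. That share of members (7.89%) is near the share of all proteins. With the replicate number as a block the count was 5, and it was 0 without replicate 1, without replicate 2 and with no run factor.

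**Figure D2:**
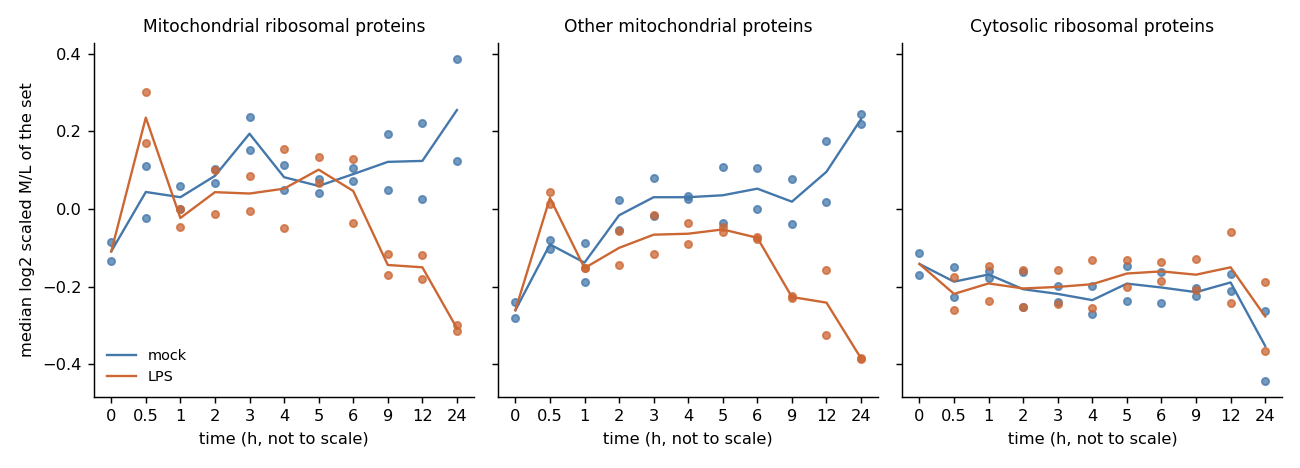
Median log2 scaled M/L of 24 mitochondrial ribosomal proteins, of other mitochondrial proteins and of cytosolic ribosomal proteins with a value in all runs, by time. Points are runs and lines join the means of the 2 replicates. For the mitochondrial ribosomal proteins the 24 h medians are 0.12 and 0.39 in mock and -0.32 and -0.30 after LPS.

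These calls rest on the run factor. Its log2 value lay between -0.68 and -0.28 in replicate 1 and between -0.35 and 0.69 in replicate 2. The highest was that of LPS 12 h replicate 2. The part of these offsets in the scatter and in the number of calls was not tested. With no factor no member was called over 6 to 12 h or at 24 h, although 34 of 42 and 35 of 35 estimates stayed below 0. The median of all proteins was then 0.15 and 0.17, and the members lay 0.22 and 0.55 log2 below it (0.21 and 0.55 with the factor). The factor shifts all proteins of a run alike, so this gap can hardly change and is no separate support. With each replicate number alone 1 and 3 members were called over 6 to 12 h. Without LPS 9 h replicate 1, or without mock 12 h replicate 2, 11 were called.

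Total protein (M/L + H/L) gave the same direction. It largely repeats M/L, as the members' median H share of M plus H was only 13.0% to 20.5% in all runs. Over 6 to 12 h 12 of 39 members were called lower, where 19.8% of all proteins were called and 9.59% were called lower. The median was -0.22, against 0.00 for all proteins. At 24 h 21 of 33 were called lower, against 37.8% of all proteins called and 20.1% called lower, with a median of -0.59 against 0.01. Of these 21, 20 were also called in M/L at 24 h. The exception, Mrpl47, stood at 0.972 and 0.846 after LPS and at 1.23 and 1.29 in mock (-0.47, limma adjusted p = 0.016). Without mock 24 h replicate 2 the count was 12, and without LPS 9 h replicate 2 or mock 12 h replicate 2 the 6 to 12 h count was 7. The 6 to 12 h count was 3 without replicate 1 and 0 without replicate 2. With no run factor it was 0 at both, while the members' median relative to that of all proteins was -0.25 and -0.59. These gaps are nearly fixed, as the factor shifts all proteins of a run alike.

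Mrpl11 had the smallest p for total protein over 6 to 12 h. It lay between 0.912 and 1.24 after LPS (median 1.02) and between 1.14 and 1.51 in mock (median 1.35), with a log2 difference of -0.35 ± 0.06 (limma adjusted p = 5.74e-05). Mrpl12 differed by -0.21 ± 0.05 (limma adjusted p = 0.00311). Mrpl13, Mrpl28, Mrpl39, Mrpl40, Mrpl41, Mrpl50, Mrpl55 and Mrps26 were called between -0.33 and -0.22. The last 2 called, Mrps18b and Mrpl37, had larger estimates with more scatter. Mrps18b was measured in 4 late runs of each arm, with total values of 1.38 to 1.50 after LPS (median 1.43) and 1.17 to 10.1 in mock (median 7.40). Its scaled H/L was 0.262 in the only mock run of replicate 1 and reached 9.03 in the mock runs of replicate 2. The arms overlapped in total protein (-1.94 ± 0.53, limma adjusted p = 0.021). Mrpl37 lay between 0.454 and 1.20 after LPS and between 1.04 and 1.61 in mock over 5 runs each (-0.80 ± 0.21, limma adjusted p = 0.0133), and without replicate 2 its estimate was -0.12. Between 1 to 3 h and 6 to 12 h the difference in total protein changed for 2 of 36 members (10.5% of all proteins), and between 6 to 12 h and 24 h for 6 of 30 (17.0% of all proteins). These shares of members, 5.56% and 20.0%, were below and near those of all proteins. The first count was 1 when any of 7 runs was left out alone, among them the 3 late LPS runs of replicate 2. Neither of those 2 members was called without replicate 1 or without replicate 2. At 6 to 12 h every LPS value lay below every mock value in total protein for 4 of 39 members, against 4.61% of all proteins.

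**Figure D3:**
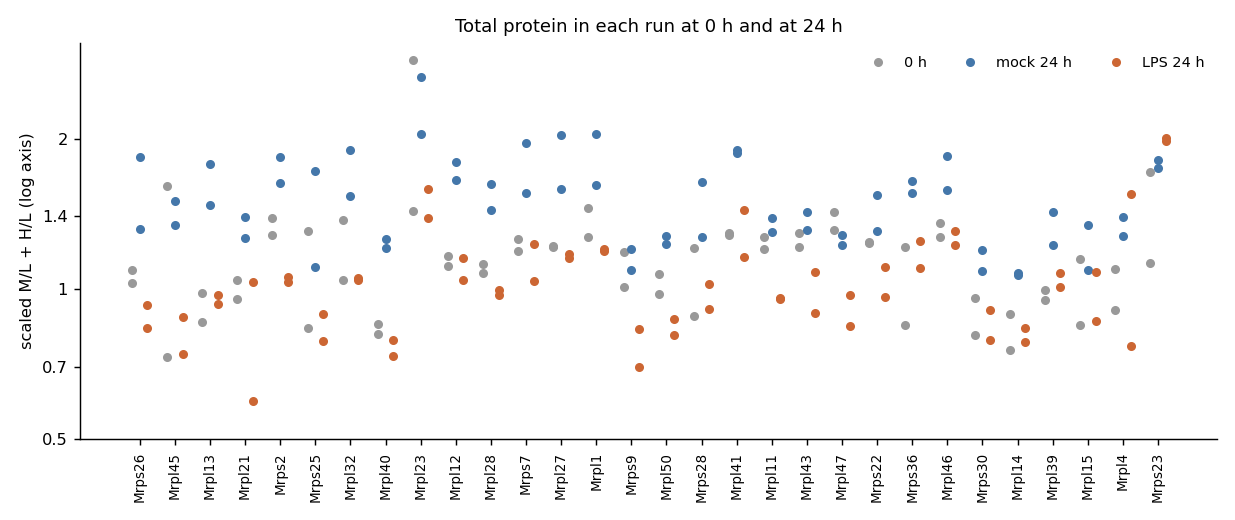
Scaled M/L + H/L (log axis) of 30 members in each run at 0 h (grey), in mock at 24 h (blue) and after LPS at 24 h (orange), ordered by the difference between arms. Each point is 1 run. Both LPS runs lie below both mock runs for most members, and Mrps23 at the right end is the other way round (2.01 and 1.98 after LPS, 1.75 and 1.82 in mock).

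At 24 h every LPS run lay below every mock run in total protein for 30 of 33 members, against 32.8% of all proteins. The members called were Mrpl1, Mrpl9, Mrpl11, Mrpl12, Mrpl13, Mrpl14, Mrpl27, Mrpl28, Mrpl32, Mrpl39, Mrpl40, Mrpl41, Mrpl45, Mrpl47, Mrpl50, Mrpl55, Mrps2, Mrps7, Mrps25, Mrps26 and Mrps28, with estimates between -0.99 and -0.34. Mrpl12 stood at 1.05 and 1.16 after LPS and at 1.66 and 1.80 in mock (-0.65, limma adjusted p = 1.92e-06), having been 1.12 and 1.17 at 0 h. Mrpl40 stood at 0.790 and 0.736 after LPS, 1.26 and 1.21 in mock and 0.853 and 0.814 at 0 h. In both proteins the LPS runs were near the 0 h runs and the mock runs were above them.

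Set against 0 h, total protein was called higher for some members in mock, and most members were not called in either arm. Both comparisons use the same 2 samples at 0 h. In mock cells 5 of 33 members were called higher and none lower at 9 and 12 h, where 12.3% of all proteins were called and 7.47% were called higher. They were Mrpl12 (0.41), Mrpl39 (0.29), Mrpl40 (0.32), Mrpl41 (0.39) and Mrps36 (0.48), and the median was 0.30 against 0.00 for all proteins. With the replicate number as a block 8 were called. Leaving out 1 run gave between 1 and 4, with 1 or 2 without either 0 h run or without replicate 2 of mock 9 or 12 h. At 24 h in mock 12 of 33 were higher and none lower (32.5% of all proteins called, 18.5% higher), with a median of 0.41. After LPS at 24 h 2 of 33 were called, Mrpl11 (-0.37) and Mrpl47 (-0.60), both lower, with a median of -0.14 (15.6% of all proteins called, 6.06% lower). With no run factor the median in mock at 24 h was -0.069, while all proteins had -0.47. The members lay 0.40 log2 above the bulk, a gap that the factor can hardly change. Without the factor none was called at either time in mock, and 24 of 33 estimates at 24 h were below 0.

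Pre-existing protein, which can only be lost after the switch, is given relative to the bulk here too. In M/L 14 of 38 members were called higher and none lower in mock at 9 and 12 h against 0 h (30.9% of all proteins called, 7.22% higher). Without 0 h replicate 1 or 2 the count was 7 or 4, and without replicate 2 of mock 9 or 12 h it was 8. At 24 h 22 of 36 were higher and none lower (61.6% of all proteins called, 11.8% higher), with a median of 0.40 against -0.29 for all proteins. With no run factor none was called there, 25 of 36 estimates were below 0 and the median was -0.082 against -0.77 for all proteins. The gap of 0.69 log2 was the same with the factor, which shifts all proteins of a run alike. After LPS none of 39 was called at 9 and 12 h by limma, where 19.7% of all proteins were called, and 1 had an unadjusted p under 0.05. At 24 h 6 of 36 were called lower (60.3% of all proteins called, 59.7% lower), with a median of -0.25 against -0.33, and 10 with the replicate block. That median turned to 0.16 with the deposited normalised ratios and to 0.099 when each channel was centred on its own median. The median of all proteins then moved to -0.018 and 0.015. From 0 h to 24 h the members' median change thus lay 0.69 log2 above that of all proteins in mock, and 0.084 log2 above it after LPS. These are changes and not levels. The scaled M/L is a ratio to each protein's own amount in the L standard, so it does not rank proteins by abundance. The 24 members with M/L in all runs had log2 medians of -0.315 and -0.299 after LPS at 24 h. All proteins with M/L in all runs had -0.581 and -0.553. At 0 h the medians were -0.085 and -0.133 for the members, against -0.219 and -0.217.

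The share of summed iBAQ, an intensity per theoretical peptide, needs no run factor but is still relative to the run's total. A sum also leans on the highest members. At 0 h these were Mrpl12 (mean log10 iBAQ 8.68) and Mrps36 (8.57), which is outside the ribosome, against a median of 7.37. In M and H together the 70 members held 0.117% and 0.160% of the run's total at 0 h. At 24 h they held 0.199% and 0.220% in mock and 0.128% and 0.171% after LPS. Over 6 to 12 h the 6 mock runs lay between 0.159% and 0.189% (median 0.171%), and the 6 LPS runs between 0.118% and 0.178% (median 0.138%), so the arms overlapped there and not at 24 h.

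The H share of these members rose little from its 0 h value. At 0 h the H share of M plus H had a median of 17.5% and 15.4% over the members with a value, which sets the background, as heavy medium had only just been given. At 24 h it was 18.8% and 17.0% in mock and 20.5% and 17.8% after LPS. Over all proteins it went from 14.2% and 13.1% at 0 h to 29.5% and 29.3% in mock and 32.8% and 30.7% after LPS. For a list of other mitochondrial proteins it began lower, at 9.43% and 10.1%. It was 16.2% and 15.7% there in mock at 24 h and 17.7% and 17.8% after LPS. Against 0 h, scaled H/L was called higher at 24 h for 3 of 33 members in mock, Mrpl12 (1.53), Mrpl40 (2.02) and Mrps2 (1.57), where 50.3% of all proteins were called. After LPS it was called higher for 2 of 33, Mrpl12 (1.02) and Mrps2 (1.14), where 53.0% of all proteins were called. Both use the same 0 h samples. The estimates were above 0 in 28 of 33 members in mock, with a median of 0.50 against 1.12 for all proteins. After LPS 21 of 33 were above 0, with a median of 0.31 against 1.24. Few calls alone do not show that little protein was made. In mock at 9 and 12 h scaled H/L was called higher for Mrpl12 (1.05) and Mrpl37 (2.60), 2 of 33, where 23.1% of all proteins were called.

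**Figure D4:**
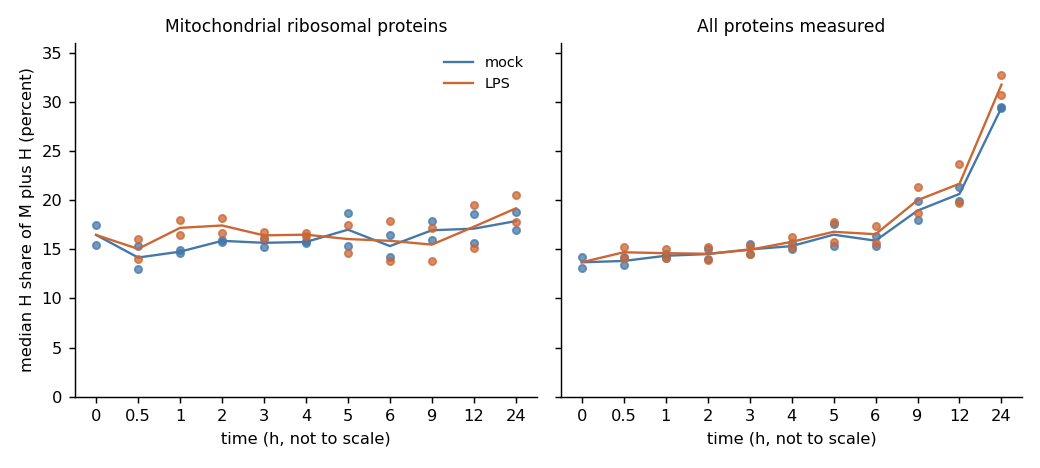
Median share of H in M plus H (percent) by time for mitochondrial ribosomal proteins and for all proteins. Points are runs and lines join the means of the 2 replicates. The members stay between 13.0% and 20.5% in all runs, while all proteins reach 29.3% to 32.8% at 24 h.

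In H/L limma called none of 39 members over 6 to 12 h, where 12.3% of all proteins were called, and 3 had an unadjusted p under 0.05. None of 41 was called over 1 to 3 h (0.475% of all proteins, 1 at an unadjusted p under 0.05). At 24 h none of 33 was called (10.2% of all proteins) and 1 had an unadjusted p under 0.05. The 24 h estimates were below 0 in 28 of 33 members and 46.3% of all proteins, with a median of -0.51 against 0.06 for all proteins. Every LPS run was below every mock run in 17 members and above in 3, against 26.2% of all proteins below. None of 36 was called in the late minus early comparison (7.22% of all proteins, 2 at an unadjusted p under 0.05).

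The 6 smallest p over 6 to 12 h belonged to Mrpl11 (-0.74 ± 0.27), Mrpl37 (-1.41 ± 0.52), Mrps18b (-2.43 ± 1.00), Mrpl40 (-0.62 ± 0.35), Mrpl24 (-0.85 ± 0.51) and Mrpl13 (-0.49 ± 0.32), with adjusted p from 0.082 to 0.457 by limma. Mrpl11 had H/L between 0.087 and 0.135 after LPS (median 0.097) and between 0.112 and 0.261 in mock (median 0.185), with overlap. At 24 h the smallest p were those of Mrpl13 (-1.18), Mrpl40 (-1.08) and Mrpl21 (-1.86), at adjusted p from 0.221 to 0.453 by limma. In simulated runs with the spread of these data, an H/L change of 0.6 log2 was recovered for 22.4% of changed proteins over 6 to 12 h. At 24 h it was recovered for 0%. The same change in M/L was recovered for 92% and 75%. Fewer proteins were changed there than in the data, which makes the adjusted threshold stricter. In H/L at 24 h 0 proteins were called in the simulation, against 316 of 3095 in the data. Runs were drawn independently and all tested proteins were used, so these rates are not those of the members.

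The pace at which H replaced M was not told apart between arms. In mock cells from 0.5 to 12 h the log2 M share had a median slope of -0.00156 per h over 41 members, against -0.00836 per h over 3418 other proteins. The members' median was steeper in 5 of 7 alternatives, between -0.00387 without replicate 1 and -0.00233 with a minimum of 4 pairs. It fell by more than 2 SE for 8 members (19.5%) and for 46.3% of the others, and in 16 members the slope was not below 0. Other mitochondrial proteins had a median slope of -0.00254 per h (9 of 27 fell by more than 2 SE) and cytosolic ribosomal proteins one of -0.00279 (31 of 73). The differences between these groups were not tested. The shortest half-times were those of Mrps18b (8.29 h, from a slope within 2 SE of 0), Mrpl23 (11.0 h), Mrpl33 (27.8 h) and Mrpl50 (31.7 h). The slopes did not correct for H signal at 0 h. Scaled H/L of Mrpl23 was 0.679 and 2.13 at 0 h and 1.70 and 0.961 in mock at 24 h. For Mrpl50 it was 0.257 and 0.247, then 0.252 and 0.231. For Mrpl33 it was 0.371 and 0.248, then 0.608 in the only mock run with a value. These half-times are therefore not firm measures of turnover. The longest could not be resolved. The slopes of Mrpl39, Mrpl17, Mrpl38 and Mrpl12 were between -0.00105 and -0.00078 per h, less than 1 SE from 0. Growth was not accounted for. LPS and mock slopes differed for none of 39 members by limma, where 13.9% of all proteins were called, and 2 had an unadjusted p under 0.05. The smallest p were those of Mrps36 (-0.0113 ± 0.0049 per h, limma adjusted p = 0.149), Mrpl37 (0.0513, limma adjusted p = 0.198) and Mrpl55 (0.0214, limma adjusted p = 0.265). H/M over 6 to 12 h likewise called none of 39 (12.4% of all proteins), with a median of 0.02 against 0.08.

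The other proteins that build or serve this ribosome were read in M/L over 6 to 12 h and then at 24 h, where 13.6% and 27.6% of all proteins were called lower. No list was tested against that share, and the lists are small. Of 6 further subunits 3 were tested. Dap3, a small-subunit GTP-binding protein, was lower at -0.26 (limma adjusted p = 0.013) and -0.65 (limma adjusted p = 0.000176), and Gadd45gip1, at the tunnel exit, was lower at -0.23 and -0.45. Ict1 was tested and not called, and Ptcd3 had too few values. Among translation factors 2 of 4 were called lower over 6 to 12 h and 2 of 3 at 24 h. The elongation factor Tufm was lower at both, at -0.31 and -0.51, its exchange factor Tsfm over 6 to 12 h (-0.28) and the recycling factor Gfm2 at 24 h (-0.68). Of the tRNA synthetases Iars2 was lower at both (-0.31 and -0.42; 1 of 3 tested called over 6 to 12 h) and Hars2 at 24 h (-0.77; 2 of 2 called). In the assembly list 1 of 5 and 1 of 4 were called lower, the rRNA methyltransferase Mrm1 (-0.70) and, at 24 h, the matrix protease Clpp (-0.84). In the transcription and RNA list 3 of 7 and 4 of 7 were called lower. Lrpprc, which stabilises mitochondrial messages, was at -0.28 and -0.72, Ssbp1, which binds single-stranded mitochondrial DNA, at -0.36 and -0.59, and Hsd17b10, a subunit of mitochondrial RNase P, at -0.25 and -0.67. The exoribonuclease Pnpt1 was called at 24 h (-0.71). The DNA-packaging factor Tfam was not called, with -0.20 (limma adjusted p = 0.402) and -0.41 (limma adjusted p = 0.124).

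Other mitochondrial proteins, a list of import, matrix and membrane proteins, were mostly lower too. Of 27 tested over 6 to 12 h 16 were called lower and none higher (median -0.24), and of 26 at 24 h 20 were called lower and none higher (median -0.64). The citric acid cycle enzyme Mdh2 was at -0.70 at 24 h, citrate synthase (Cs) at -0.62, and the import receptor Tomm70a at -1.65. Of 72 cytosolic ribosomal proteins tested over 6 to 12 h 4 were called higher and 1 lower (median 0.03), and of 73 at 24 h 7 were called higher and 1 lower (median 0.04). The only mitochondrially encoded proteins measured were Mtco2, a subunit of cytochrome c oxidase, and Mtatp8, a subunit of the ATP synthase, which are products of this ribosome. They were not called at either time (limma adjusted p from 0.643 to 0.906). The estimates were 0.14 ± 0.19 and 0.05 ± 0.19 over 6 to 12 h and 0.15 ± 0.33 and 0.22 ± 0.32 at 24 h. With SE this wide, a difference as large as the members' median could have gone uncalled. The differences between these lists and the members were not tested.

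Markers of other myeloid cells moved with the arms as well. In M/L at 24 h 5 of 5 granulocyte and 6 of 6 macrophage markers tested were called lower (medians -1.15 and -1.11), as were 2 of 2 erythroid and platelet markers, and of the dendritic cell markers 3 of 7 were called lower. In total protein at 24 h the lists did not all move one way. Of the macrophage markers Cd14 was called higher (0.61) and Csf1r was not called (-0.12), and of the granulocyte markers Lcn2 was not called (0.25). The dendritic cell markers Cd40 (2.93) and Fscn1 (0.67) were called higher and Itgax (-1.03), Cd74 (-0.69) and Itgam (-0.31) lower. All 10 granulocyte markers on the list were in the table, Prtn3 being at 0 in both 0 h runs, and together they held 0.128% and 0.157% of summed iBAQ in mock at 24 h and 0.062% and 0.064% after LPS. The 8 of 11 macrophage markers measured held 1.16% and 1.75% in mock and 0.625% and 0.845% after LPS. For 3 of 8 erythroid and platelet markers the shares were 0.0085% and 0.0186% in mock and 0.0072% and 0.0113% after LPS, and the 9 dendritic cell markers held 0.131% and 0.144% in mock and 0.121% and 0.124% after LPS. The part of these cells in the members' differences was not tested.

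In level the members sat in the middle of the measured proteome. At 0 h 67 and 63 members had a trypsin iBAQ value in the 2 runs, with median percentiles of 50.3 and 47.8 among all proteins with a value. Values in both runs were available for 61 members, whose mean log10 iBAQ ran from 6.39 to 8.68 with a median of 7.37, a span of 198-fold. The highest were the stalk protein Mrpl12 (8.67 and 8.70), which is present in several copies per ribosome, then Mrps36 (8.64 and 8.50) and Mrpl50 (8.23 and 8.01). The lowest were Mrpl49 (6.68 and 6.10), Mrps10 (6.38 and 6.56) and Mrps35 (6.74 and 6.29). The median difference between runs was 0.21 log10 units, so most neighbours in this order lay closer than the runs did. The paralogs Mrps18a (7.63 and 7.18) and Mrps18b (6.05 and 7.21) overlapped, and Mrps30 stood at 7.66 and 7.74. AspN and LysN digests of 0 h cells held 17 and 39 of these groups, at lower median percentiles, 35.09 in AspN and 24.78 in LysN as means of 2 runs.

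**Figure D5:**
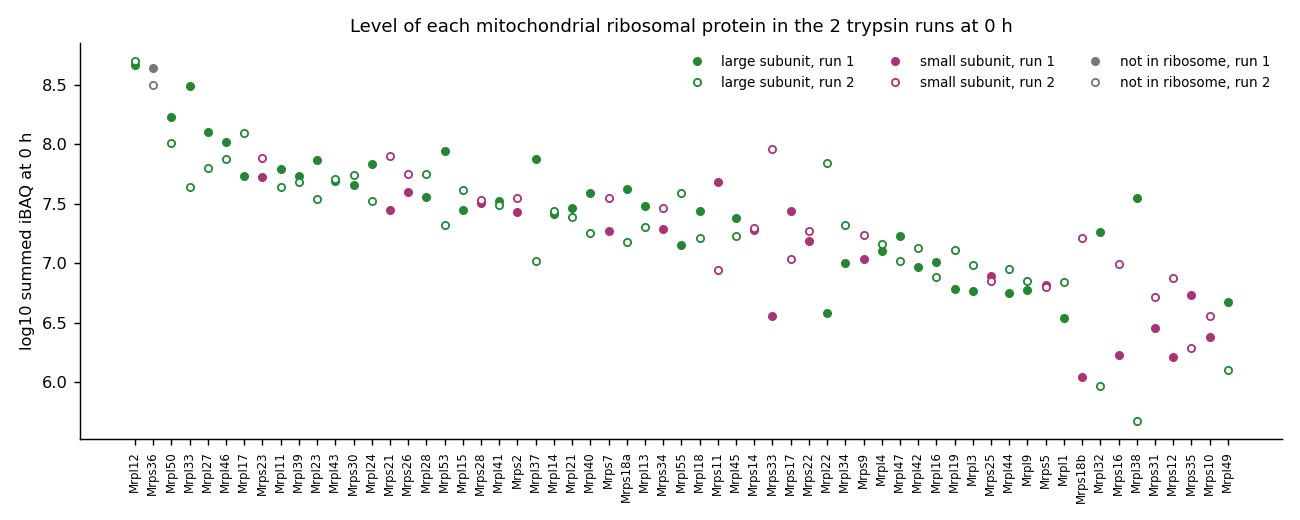
Log10 summed iBAQ at 0 h of 61 members with a value in both trypsin runs, ordered by their mean. Filled points are run 1 and open points run 2, coloured by subunit. Mrpl12 leads at 8.67 and 8.70, and small-subunit members have a median of 7.24 against 7.42 for the large subunit.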

How the data were processed

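The labels describe proteins of mouse bone marrow dendritic cells measured by mass spectrometry. Per the file headers the deposited tables hold, for each run and protein group, un-normalised and normalised ratios (M/L, H/L and H/M), the count of peptide pairs behind each ratio and iBAQ intensity. No source used here names the search program or its settings. All deposited ratios of the members rest on at least 2 pairs.

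Un-normalised ratios were divided by the run factor described above and put on a log2 scale. The fit was limma's (3.58.1, R 4.3.3), with a mean for each of the 21 groups of arm and time. Late comparisons needed 4 of 6 values in each arm, 24 h comparisons 2 of 2, drift in mock 3 of 4, and slopes 12 of 18. Total with normalised ratios was not run, as each channel was normalised apart. The fits were tested on simulated data.

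Named were all members called, those with the smallest p, the extreme half-times and levels, and the paralogs. The members and lists were chosen with earlier results of these data known. Comparisons with 0 h after LPS or at 24 h, of M/L and total between windows, of iBAQ shares, the minimum of 4 pairs, the promoter motifs and the cytosolic ribosomal list were added after seeing the data, and a longer NRF1 motif, found in fewer promoters of members and of all genes, was searched before the core. Same-numbered replicates deviated together in M/L (210 pairs of groups, lowest r 0.14, median 0.36). In total r was also above 0 in every pair (lowest 0.03, median 0.27), and over 0.1 in 95.7% of them. It was not above 0 in every pair for H/L (lowest -0.11). The numbers thus pair the M/L samples and, more weakly, those of total, while the main fits held no replicate block. Alternatives were other scalings, minimum pair counts, a replicate block, limma's trend, and leaving out replicates.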

Additional observations from a re-analysis of the deposited data

Results flagged for a closer look

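The difference between LPS and mock itself changed between time windows for the members named here, by limma's test of the change (adjusted p under 0.05, log2 scale). From 1 to 3 h to 6 to 12 h, M/L changed by -0.37 in Mrpl53, -0.32 in Mrpl23 and -0.23 in Mrpl41. The 3 were among 38 tested (6.32% of all proteins called), and none was called without replicate 1 or without replicate 2. Total protein changed by -1.07 in Mrpl37 and -0.31 in Mrpl11. These were 2 of 36 tested, a lower share than the 10.5% of all proteins called. Neither was called without replicate 1 or without replicate 2. Mrpl37's late difference was -0.12 without replicate 2. From 6 to 12 h to 24 h, M/L of the large-subunit proteins changed by -0.63 in Mrpl45, -0.62 in Mrpl32, -0.61 in Mrpl55, -0.51 in Mrpl53, -0.48 in Mrpl27, -0.47 in Mrpl41, -0.46 in Mrpl21, -0.44 in Mrpl12, -0.39 in Mrpl40, -0.35 in Mrpl46, -0.32 in Mrpl39, -0.31 in Mrpl23 and -0.28 in Mrpl50. In the small subunit it changed by -0.74 in Mrps2, -0.58 in Mrps23 and -0.47 in Mrps7. The members called in M/L for this step were 16 of 33 tested, where 17.3% of all proteins were called. Total protein over the same step changed by -0.66 in Mrps2, -0.56 in Mrps26, -0.53 in Mrpl55, -0.46 in Mrpl27, -0.44 in Mrpl12 and -0.43 in Mrpl40. These were 6 of 30 tested, a share near the 17.0% of all proteins called. With no run factor none of these changes was called. Relative to the median of all proteins, the members' median change was then -0.16 in M/L and -0.21 in total protein for the first step, and -0.31 and -0.33 for the second. Such gaps barely depend on the factor, which shifts all proteins of a run alike.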

How the results depend on the processing

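Counts of members called were within 1.5 times the reported ones except as follows. With no run factor 0 members were called in M/L and in total over 6 to 12 h (late), at 24 h, in late minus early, in 24 h minus late, in mock 9 and 12 h and 24 h against 0 h and in LPS 24 h against 0 h. Single times before 24 h, and total in LPS 9 and 12 h against 0 h, were not rerun that way. The deposited normalised ratios called 1, 2 and 5 members in H/L (late, early, late minus early), 28 in M/L of mock 9 and 12 h against 0 h (14 with the run factor), and 5 in M/L of LPS 9 and 12 h against 0 h (0 with it). The replicate block called 8 (total, mock over time), 5 (M/L, late minus early) and 10 (M/L, LPS 24 h against 0 h, 6 without it) and changed no other count by over 1.5 times. A minimum of 4 pairs left fewer members to test and called 17 of 18 (M/L, 24 h), 12 of 15 (total, 24 h), 9 of 16 (M/L, 24 h minus late), 3 of 18 (M/L, LPS 24 h against 0 h) and 1 of 14 (total, same). Centring each channel on its own median called 2 in M/L of LPS 24 h against 0 h. Leaving out a run or a replicate number gave 1 to 18 calls in M/L late, 21 to 27 in M/L at 24 h, 0 to 14 in total late, 12 to 18 in total at 24 h, 0 to 4 in total of mock over time, 0 to 16 in M/L of mock over time, 0 to 4 and 0 to 3 in late minus early of M/L and total, 0 to 1 in each H/L comparison, 0 to 2 in H/M and 0 to 1 in the slopes. The median slope in mock was -0.00264 from 2 h, -0.00348 to 9 h, -0.00233 with 4 pairs and -0.00387 and -0.00297 without replicate 1 and 2, against -0.00156. The median level percentile was 35.09 in AspN and 24.78 in LysN, and 47.8 to 50.3 with 1 trypsin run left out. Reversed values were Mrpl55 in M/L late without replicate 1 (0.017, and -0.338 without replicate 2), and, with no run factor, the medians of mock 24 h against 0 h in M/L (-0.082) and total (-0.069) and total of Mrpl14 (-0.094), Mrpl17 (-0.029), Mrpl28 (-0.003) and Mrpl39 (-0.04) there. The median of M/L in LPS 24 h against 0 h was -0.25, but 0.162 with normalised ratios and 0.099 with own-median centring. The median of all proteins moved as well, from -0.334 to -0.018 and 0.015. Relative to it the members' median was 0.084 with the run factor, 0.18 with normalised ratios and 0.084 with own-median centring. The cause of the reversed values was not tested. A median of 4 pairs for each member value limits these estimates most in H/L.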
